A study of Mus musculus with 60 samples.

Results

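The genes described here are the 9 interferon genes of a 770-gene mouse neuroinflammation panel that a list of symbols picked out: the receptor subunits Ifnar1 and Ifnar2, the sensor Ifih1, the transcription factors Irf3, Irf7 and Irf1, and the induced genes Ifitm2, Ifitm3 and Gbp2. The list was drawn up with earlier results of these data known. All 9 were rows of the normalized expression table. They were read across hippocampus, hypothalamus and brain stem, across mid-dark and mid-light, and across mammary tumor-bearing and vehicle-injected mice. The panel counts RNA molecules with nanoString nCounter probes, and each value is a normalized log2 expression level, so a difference of 1 is a doubling.

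Every mouse was a female of the Balb/C strain. Tumor-bearing mice had received 67NR cells, a line of mouse mammary carcinoma that does not metastasize, in the inguinal mammary glands, and vehicle-injected mice had received the DMEM culture medium alone. Brains were taken on day 25 after injection, at 13 weeks of age, either at ZT19 in the middle of the dark phase or at ZT7 in the middle of the light phase of a 14:10 light:dark cycle, from mice perfused with saline. Of 60 listed samples from 20 mice, 56 had values, and those not analysed here were all from vehicle-injected mice (the brain stem of mouse 8 and the hypothalamus of mice 10, 12 and 32). The hippocampus had 5 mice in each of the 4 groups. The hypothalamus had 3 vehicle-injected mice at mid-dark and 4 of them at mid-light, with 5 tumor-bearing mice at each time. The brain stem had 4 vehicle-injected mice at mid-dark and 5 mice in each other group.

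The mouse is the replicate, and the small number of mice limits the precision. Samples correlated with the mean of their region at r of 0.987 to 0.996, and no pair of samples held identical values. Region labels were checked against marker genes. Slc17a7, the vesicular glutamate transporter of hippocampal and cortical neurons, lay at 12.6 to 13.3 in hippocampus, 4.85 to 9.05 in hypothalamus and 9.52 to 10.6 in brain stem. Of the same list of 4, Nrgn and Tbr1 were also highest in every hippocampus. Camk4 was not, at 10.5 to 10.9 in hippocampus and 9.27 to 11.3 in brain stem. The forebrain factor Dlx1 lay at 6.75 to 7.76 in hippocampus, 7.98 to 9.04 in hypothalamus and 2.19 to 5.87 in brain stem. The choroid plexus gene Ttr varied widely within hippocampus (5.36 to 14.7) and brain stem (6.49 to 13.8). The 9 interferon genes lay between 4.92 and 10.5 in all samples, and none sat at the lowest value of the table. Probes differ in efficiency, so levels were compared between samples of a gene and never between genes. The tissue is bulk, so fewer cells of a type and less RNA per cell cannot be told apart.

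Type I interferons are cytokines that signal through a receptor made of the Ifnar1 and Ifnar2 subunits. The helicase Ifih1, also called MDA5, senses double-stranded RNA in the cytoplasm and signals to the factors Irf3 and Irf7, which switch on the interferon genes, while Irf1 acts in the response to type II interferon and to other cytokines. Signaling from the receptor then turns on induced genes, among them the membrane proteins Ifitm2 and Ifitm3, which restrict the entry of viruses, and the GTPase Gbp2, which acts against intracellular microbes. In the brain, microglia, endothelial cells, astrocytes and neurons can all respond to interferon.

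Interferon signaling acts on genes through DNA motifs. Promoter sequences are shown because a core motif of the interferon response was found in 4 members and not in the others. All 9 members matched RefSeq promoters of build GRCm38.p6, the C57BL/6J reference and not the Balb/C strain, each spanning 250 bases before to 50 bases after a start site (Irf1 has 2, so 10 promoters in all). Both strands were searched for the core of the interferon-stimulated response element, GAAANNGAAA, and for the gamma-activated site, TTCNNNGAA. The core was found in 4 of the 10 promoters, those of Ifih1, Ifitm2, Ifitm3 and Gbp2, and in 3.44% of the 32851 promoters of the same length. The gamma-activated site was found in 4 of the 10, those of Ifnar1, Ifnar2, Irf1 and Ifitm3, and in 8.3% of all. The promoters of Irf3 and Irf7 held neither run of letters. These are matches of letters, not tested binding sites.

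Below, the core is in capitals in the 4 genes that hold it, on the strand of the gene, with positions counted from 0 at the start site. The window of Ifih1 is chr2:62646206-62646235 on the minus strand, with the match at 32 to 41. That of Ifitm2 is chr7:140955942-140956051 on the minus strand, with the match at -46 to -37, and that of Ifitm3 is chr7:141010716-141010804 on the minus strand, with matches at 2 to 11 and 19 to 28 and a gamma-activated site between them at 13 to 21 that overlaps the second. That of Gbp2 is chr3:142620563-142620672 on the plus strand, with the match at -59 to -50 on the opposite strand, so that it reads there in reverse complement.
Ifih1: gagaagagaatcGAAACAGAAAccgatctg
Ifitm2: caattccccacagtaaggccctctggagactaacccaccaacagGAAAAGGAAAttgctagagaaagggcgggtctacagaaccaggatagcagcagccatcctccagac
Ifitm3: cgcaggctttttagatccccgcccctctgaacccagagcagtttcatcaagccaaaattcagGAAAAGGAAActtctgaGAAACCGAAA
Gbp2: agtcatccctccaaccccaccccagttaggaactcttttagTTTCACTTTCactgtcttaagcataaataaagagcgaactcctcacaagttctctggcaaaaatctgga

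The windows of Ifnar2 and Irf3 are shown because these were the members whose level differed between mid-dark and mid-light. That of Ifnar2 is chr16:91372553-91372662 on the plus strand, with the gamma-activated site in capitals at -214 to -206. That of Irf3 is chr7:44997548-44997657 on the plus strand, from -100 to 9, and has no capitals because neither motif matched.
Ifnar2: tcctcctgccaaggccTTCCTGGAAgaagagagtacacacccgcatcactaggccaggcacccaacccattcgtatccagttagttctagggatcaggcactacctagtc
Irf3: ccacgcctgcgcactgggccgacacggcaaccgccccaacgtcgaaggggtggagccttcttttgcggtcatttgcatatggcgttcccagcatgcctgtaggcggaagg

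Within a region, Irf3 and Ifnar2 were the members called for time of day. Irf3 was higher at mid-dark than at mid-light by 18.5% in hippocampus, by 29.0% in hypothalamus and by 22.2% in brain stem. Ifnar2 was lower at mid-dark in hippocampus by 14.2% and in brain stem by 11.7%. With tumor-bearing and vehicle-injected mice averaged, 5 of the 27 tests of 9 genes in 3 regions had an adjusted p under 0.05 (limma, Benjamini-Hochberg over all genes of a region), 3 higher and 2 lower at mid-dark, against 4.29% of all gene and region tests. At an unadjusted p under 0.05 it was 7 of 27, against 15.9%. By region the called members were 2 of 9 in hippocampus, where 5.59% of all genes were called, 1 of 9 in hypothalamus (2.34%) and 2 of 9 in brain stem (4.94%). The 5 calls came from Irf3 and Ifnar2 alone, in regions of the same mice, so they are not independent of each other. Because the members were chosen with earlier results of these data known, their shares are a description and not a test. With the 3 regions fitted together and the mouse as a block, 2 of 9 members (22.2%) were called, against 13.5% of all genes. An unadjusted p under 0.05 was found for 3 of 9 (33.3%), against 25.6%. The median log2 difference of the 27 tests was -0.05, beside 0.00 for all genes.

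Ifnar2, the subunit that holds the kinase Jak1 and is needed for the signal, had hippocampal levels of 8.71 at the lowest, 8.79 at the median and 9.03 at the highest at mid-dark, and of 8.85, 9.05 and 9.21 at mid-light. The mid-dark samples lay low, and the ranges overlapped between 8.85 and 9.03. The log2 difference was -0.22 (SE 0.05, 95% interval -0.32 to -0.12, adjusted p 0.0138 by limma). In brain stem Ifnar2 lay at 8.68, 8.79 and 8.96 at mid-dark and at 8.85, 8.95 and 9.16 at mid-light. The ranges overlapped between 8.85 and 8.96. The difference there was -0.18 (SE 0.05, -0.28 to -0.08, adjusted p 0.0398). In hypothalamus the levels were close together, 8.99, 9.03 and 9.08 at mid-dark against 9.03, 9.14 and 9.19 at mid-light. The difference of -0.08 (SE 0.03) did not pass (adjusted p 0.291, unadjusted p 0.0253).

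The Ifnar2 result in hippocampus kept an adjusted p under 0.05 in all 26 alternatives (0.00283 to 0.0294), and that in brain stem in 11 of 26 (0.0245 to 0.101). In brain stem it lost the call with the mean of the reference genes subtracted (-0.19, adjusted p 0.0884) and without any 1 of mice 3, 4, 6, 7, 9, 10, 11, 12, 13, 22, 23, 29, 30 and 32, where the difference stayed between -0.19 and -0.16. Over the 3 regions Ifnar2 was lower at mid-dark by 10.7% (log2 difference -0.16, SE 0.03, -0.22 to -0.11, adjusted p 3.33e-05). The difference between hippocampus and hypothalamus in the dark minus light effect was -0.13 (adjusted p 0.499), so the effect was not shown to differ between them.

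Ifnar1, the other subunit of the receptor, had its median lower at mid-dark in all 3 regions, but by little. In hippocampus it lay at 10.07, 10.19 and 10.42 at mid-dark and at 10.12, 10.30 and 10.41 at mid-light, which overlapped almost wholly. The log2 differences were -0.08 for hippocampus, -0.07 for hypothalamus and -0.05 for brain stem, with adjusted p of 0.384, 0.544 and 0.53. Over the 3 regions the difference was -0.07 (SE 0.02, adjusted p 0.0556). It passed in 5 of 24 alternatives (adjusted p 0.0225 to 0.125 over all): with no mouse block (0.0275) and without mouse 1, 7, 13 or 19 (0.0225 to 0.0269).

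**Figure D1:**
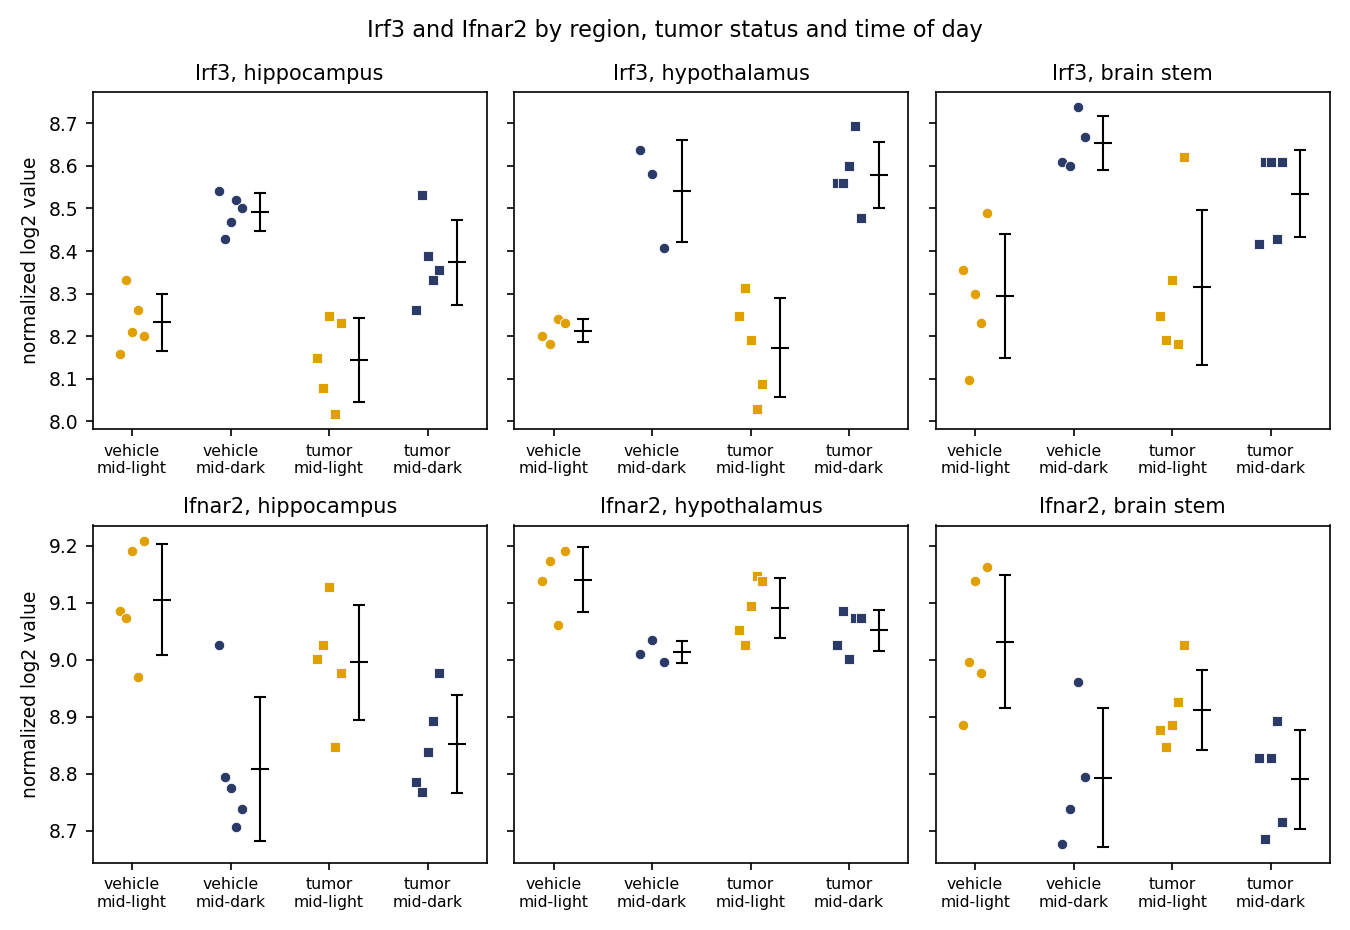
Normalized log2 level of Irf3 (upper row) and Ifnar2 (lower row) in hippocampus, hypothalamus and brain stem, 1 point per mouse, with circles for vehicle-injected and squares for tumor-bearing mice, yellow for mid-light and dark blue for mid-dark, and black marks for the mean ± SD of each group. In hypothalamus the mid-dark Irf3 points (8.41 and above) all lie over the mid-light points (8.31 and below).

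Ifih1, the RNA sensor, had wide ranges at both times. In hippocampus it lay at 6.89, 7.05 and 7.53 at mid-dark and at 6.63, 7.26 and 7.63 at mid-light, so the mid-dark range lay inside the mid-light one. The log2 difference was -0.16 in hippocampus (adjusted p 0.463) and -0.10 over the 3 regions (adjusted p 0.362).

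Irf3, a factor that is present before infection and is activated by phosphorylation, showed the clearest separation. In hypothalamus the vehicle-injected mice had levels of 8.41, 8.58 and 8.64 at mid-dark and of 8.18, 8.20, 8.23 and 8.24 at mid-light. The tumor-bearing mice had 8.48, 8.56, 8.56, 8.60 and 8.69 at mid-dark but 8.03, 8.09, 8.19, 8.25 and 8.31 at mid-light. Every mid-dark hypothalamus lay above every mid-light one, in both groups of mice. The log2 difference was 0.37 (SE 0.05, 95% interval 0.26 to 0.47, adjusted p 0.000446 by limma). This was the 1 of the 27 gene and region pairs among the members whose mid-dark and mid-light ranges did not overlap, against 0.519% of all pairs of gene and region.

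In hippocampus Irf3 lay at 8.26, 8.45 and 8.54 (lowest, median and highest) at mid-dark and at 8.02, 8.20 and 8.33 at mid-light. Mid-dark was high, and the overlap was the stretch from 8.26 to 8.33. The difference was 0.24 (SE 0.04, 0.16 to 0.33, adjusted p 0.0011). In brain stem mid-dark levels were 8.42, 8.61 and 8.74 and mid-light levels 8.10, 8.27 and 8.62, where mouse 29 of the tumor-bearing group at 8.62 and mouse 30 of the vehicle-injected group at 8.49 reached into the mid-dark range. The difference was 0.29 (SE 0.06, 0.16 to 0.42, adjusted p 0.0105).

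The Irf3 call held in all 26 alternatives in hypothalamus (adjusted p 0.000226 to 0.00286) and in brain stem (0.00137 to 0.0293). In hippocampus it held in 25 of 26 (0.00069 to 0.102) and was lost with the mean of the reference genes subtracted, which gave a difference of 0.20 and the adjusted p of 0.102. The reference genes include Asb10, which lay at -0.37 to 4.29 in hippocampus, down to the lowest value of the table. The reference mean there ran from 8.92 to 9.29. The part of Asb10 in this alternative was not tested. Over the 3 regions Irf3 was higher at mid-dark by 23.1% (log2 difference 0.30, SE 0.03, 0.23 to 0.37, adjusted p 1.03e-09). The dark minus light effect of Irf3 in hippocampus minus that in hypothalamus was -0.12, which did not pass (adjusted p 0.65).

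A mouse contributed up to 3 regions, so levels were also averaged by mouse, each taken as the value minus the mean of its region. For Irf3 the mid-dark mice had averages of 0.04 at the lowest, 0.16 at the median and 0.22 at the highest, and the mid-light mice -0.30, -0.13 and -0.06. For Ifnar2 the mid-dark mice had -0.16, -0.08 and -0.02 and the mid-light mice -0.00, 0.07 and 0.25. Neither gene had a mid-dark mouse inside the mid-light range. Non-overlapping mouse averages were found for these 2 of the 9 members and for 1.17% of all genes.

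Irf7, the factor that interferon itself induces, had log2 differences of 0.04 in hippocampus and -0.00 in hypothalamus. In brain stem it lay at 4.92, 5.42 and 5.93 at mid-dark and at 5.36, 5.71 and 6.07 at mid-light. The lowest mid-dark samples lay under every mid-light one, but the ranges overlapped for the most part. The difference of -0.27 (SE 0.13) had an unadjusted p of 0.0497 and did not pass (adjusted p 0.313). Irf1 had differences between -0.04 and -0.02 in the 3 regions, with adjusted p of 0.887 or above.

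Among the induced genes, Ifitm3 had the difference of largest size, in hippocampus, with 9.31, 9.49 and 9.97 at mid-dark against 9.48, 9.78 and 10.22 at mid-light. The mid-light median was higher and the ranges overlapped. The difference of -0.20 (SE 0.10) did not pass (adjusted p 0.279). Ifitm2 differed by -0.08 to -0.04 and Gbp2 by -0.17 to 0.07 in the 3 regions, with adjusted p of 0.765 or above for Ifitm2 and 0.54 or above for Gbp2. None of the 3 induced genes was called by limma for time of day in any region, and none had an unadjusted p under 0.05.

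**Figure D2:**
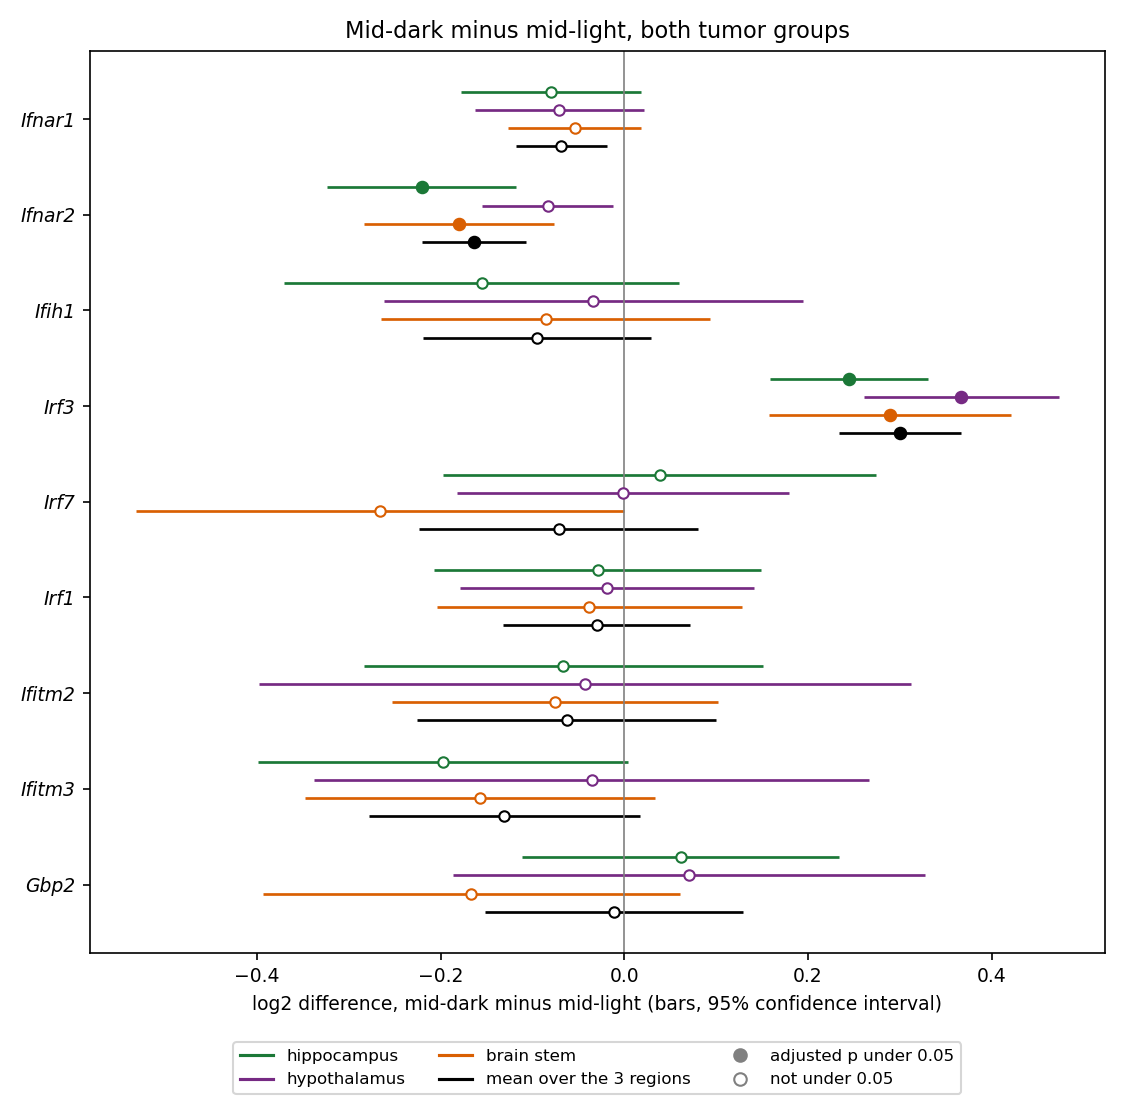
Log2 difference between mid-dark and mid-light (x axis) for the 9 genes in hippocampus (green), hypothalamus (purple) and brain stem (orange) and over the 3 regions (black), with 95% intervals and filled points where the adjusted p is under 0.05. Irf3 lies right of 0 in every region (0.24 to 0.37), Ifnar2 lies left of it (-0.22 to -0.08), and the intervals of the 3 induced genes all cross 0.

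The same comparison was made within each group of mice, which share their samples with the pooled comparison. In vehicle-injected mice 2 of 27 tests were called, against 1.3% of all, and 8 had an unadjusted p under 0.05, against 11%. In tumor-bearing mice it was 1 of 27, against 0.953%, and 4 of 27 unadjusted, against 10.7%. Those with an unadjusted p under 0.05 were Irf3 in the 3 regions of both groups, Ifnar2 in the 3 regions of vehicle-injected mice, Ifih1 in their hippocampus (-0.36, adjusted p 0.216), Ifnar1 in their brain stem (-0.12, adjusted p 0.378) and Gbp2 in the hippocampus of tumor-bearing mice (0.28, adjusted p 0.329). In the hippocampus of vehicle-injected mice Ifnar2 lay at 8.71, 8.74, 8.78, 8.79 and 9.03 at mid-dark and at 8.97, 9.07, 9.08, 9.19 and 9.21 at mid-light. Only mouse 4 at mid-dark, at 9.03, reached into the mid-light values. The difference was -0.30 (SE 0.07, adjusted p 0.0211). It lost the call when only these groups were fitted (adjusted p 0.103) and without mouse 2, 8, 10, 28, 30 or 32 (-0.30 to -0.27, adjusted p 0.0509 to 0.0774), and its adjusted p ran from 0.00609, without mouse 4, to 0.103 over the alternatives.

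Irf3 in the same hippocampi lay at 8.43, 8.47, 8.50, 8.52 and 8.54 at mid-dark and at 8.16, 8.20, 8.21, 8.26 and 8.33 at mid-light. The groups did not overlap. The difference was 0.26 (SE 0.06, adjusted p 0.0178). It lost the call with the mean of the reference genes subtracted (0.19, adjusted p 0.314) and without mouse 2, 30 or 32 (0.24 to 0.26, adjusted p 0.055 to 0.0626), within a range of 0.00933 to 0.314 over the alternatives.

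In tumor-bearing mice the call was Irf3 in hypothalamus, with a difference of 0.41 (SE 0.06, adjusted p 0.00302, range over alternatives 0.00171 to 0.0324). In their hippocampus Irf3 lay at 8.26, 8.33, 8.36, 8.39 and 8.53 at mid-dark and at 8.02, 8.08, 8.15, 8.23 and 8.25 at mid-light. The groups did not overlap. The difference of 0.23 had an adjusted p of 0.0776 and passed with unmoderated p-values (0.041) or without mouse 3 (0.26, 0.0436). In the brain stem of vehicle-injected mice Irf3 had a difference of 0.36 with an adjusted p of 0.0621, which passed without mouse 29 (0.0167) or 30 (0.034) and with genes of a mean level of at least 5 (0.039).

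The dark minus light difference of Irf3 was not shown to depend on the tumor. The tumor by phase interaction of Irf3 was -0.03 in hippocampus (95% interval -0.20 to 0.14), 0.08 in hypothalamus and -0.14 in brain stem (-0.40 to 0.12), with adjusted p of 0.927 or above. For Ifnar2 the interaction was 0.15 in hippocampus (-0.05 to 0.36, adjusted p 0.737), 0.09 in hypothalamus and 0.12 in brain stem.

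Other cell type markers also differed between mid-dark and mid-light in these samples. Of 5 oligodendrocyte markers, the myelin genes Cnp (-0.46, adjusted p 0.0061), Mag (-0.47, adjusted p 0.0138) and Mog (-0.54, adjusted p 0.0154) were lower at mid-dark in hippocampus. The mean level of the list lay at 11.0 to 12.0 at mid-dark and 11.7 to 12.4 at mid-light in hippocampus, at 11.8 to 12.5 and 12.0 to 12.5 in hypothalamus, and at 13.0 to 13.3 and 13.2 to 13.5 in brain stem, and no marker of the list was at 0. It averaged 11.66 (SD 0.29) at mid-dark against 12.06 (SD 0.22) at mid-light in hippocampus. The averages were 12.16 (SD 0.24) against 12.31 (SD 0.15) in hypothalamus and 13.18 (SD 0.07) against 13.34 (SD 0.06) in brain stem. The list was thus lower at mid-dark in each region. The endothelial gene Cldn5, a protein of tight junctions, was higher at mid-dark in hippocampus (0.29, adjusted p 0.0154) and brain stem (0.43, adjusted p 0.0063), the 1 called of 7 endothelial markers in each. The median difference of the 7 was -0.04 in hippocampus and -0.12 in brain stem, and their mean level lay at 7.18 to 7.52 at mid-dark and 7.21 to 7.54 at mid-light in hippocampus, and at 7.42 to 7.66 and 7.42 to 7.70 in brain stem. No microglia marker was called in any region. Over the 56 samples, with each group's mean taken off, the oligodendrocyte mean had an r of 0.06 with Ifnar2 and of -0.01 with Irf3. By the same measure the choroid plexus and ependyma mean had an r of 0.50 and the neuron mean of -0.50 with Ifnar2. The choroid plexus and ependyma mean in hippocampus averaged 8.86 in mid-dark mice (5.48 to 10.8) against 9.55 in mid-light mice (6.71 to 10.9). In brain stem these were 7.72 (5.92 to 9.23) against 8.03 (5.62 to 9.63). In hypothalamus they were 5.26 (5.04 to 5.60) against 5.18 (4.54 to 5.45). The neuron mean averaged 12.22 against 12.23, 12.23 against 12.31 and 11.66 against 11.71 in these regions, in the same order. The part of these markers in the Irf3 and Ifnar2 differences was not tested.

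Tumor-bearing mice were compared with vehicle-injected mice in each region over both times of day. No member was called in 27 tests by limma, against 0.607% of all tests, and 3 had an unadjusted p under 0.05, against 6.67%: Ifitm3 and Ifitm2 in brain stem with higher values in tumor-bearing mice, and Irf3 in hippocampus with lower values. The median difference of the members was 0.02, beside -0.01 for all genes, and 16 of 27 lay above 0. With the regions fitted together 0 of 9 were called, against 2.34% of all genes, and 2 of 9 had an unadjusted p under 0.05, against 9.48%.

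The receptor genes, the sensor and the factors lay close between the groups. Ifnar1 had log2 differences of -0.05 to -0.00 and Ifnar2 of -0.06 to -0.01 across the regions. Ifih1 had differences of 0.02 to 0.16, Irf7 of 0.02 to 0.04 and Irf1 of 0.04 to 0.09. Irf3 in hippocampus lay at 8.02, 8.25 and 8.53 (lowest, median and highest) in tumor-bearing mice and at 8.16, 8.38 and 8.54 in vehicle-injected mice. The tumor-bearing median was lower within overlapping ranges. The difference of -0.10 (SE 0.04) did not pass (adjusted p 0.625, unadjusted p 0.0214).

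The induced gene Ifitm3 had the largest tumor difference among the members. In brain stem at mid-dark it lay at 9.64, 9.65, 9.79 and 9.80 in vehicle-injected mice and at 9.85, 9.92, 10.09, 10.21 and 10.30 in tumor-bearing mice. At mid-light it lay at 9.73, 9.87, 9.94, 9.96 and 10.12 in vehicle-injected mice and at 9.77, 10.00, 10.19, 10.42 and 10.52 in tumor-bearing mice. The groups did not overlap at mid-dark, while at mid-light mouse 13 of the tumor-bearing group, at 9.77, lay among the vehicle-injected mice. Over both times the difference was 0.31 (SE 0.09, 95% interval 0.12 to 0.50, 23.6% higher), with an unadjusted p of 0.00349 and an adjusted p of 0.223 that did not pass. It passed without mouse 13 (0.36, adjusted p 0.0292) and in none of the other 25 alternatives (range 0.0292 to 0.477).

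Ifitm3 was measured at 9.58, 10.07 and 10.40 in the hypothalamus of tumor-bearing mice and at 9.59, 9.91 and 10.10 in that of vehicle-injected mice. In hippocampus it lay at 9.32, 9.77 and 10.22 against 9.31, 9.59 and 9.95. The tumor-bearing median was higher in both, with ranges that overlapped over most of their length. The differences were 0.20 in hypothalamus (-0.10 to 0.50, adjusted p 0.783) and 0.14 in hippocampus (adjusted p 0.843). Over the 3 regions the difference was 0.22 (SE 0.07, 0.07 to 0.36, unadjusted p 0.00492, adjusted p 0.126, range over the alternatives 0.0504 to 0.35).

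Ifitm2, its neighbor on chromosome 7 and its paralog, lay in brain stem at 9.03, 9.24 and 9.54 in tumor-bearing mice and at 8.84, 8.99 and 9.24 in vehicle-injected mice. Tumor-bearing samples lay high and the ranges overlapped between 9.03 and 9.24. The difference of 0.24 (SE 0.08) did not pass (adjusted p 0.525, unadjusted p 0.0116), nor did that over the 3 regions, 0.17 (adjusted p 0.471). Gbp2 had differences of -0.12 for hippocampus, -0.06 for hypothalamus and 0.02 for brain stem, with adjusted p of 0.843 or above. In brain stem the mean of the 7 endothelial markers lay at 7.42 to 7.70 in tumor-bearing mice and at 7.57 to 7.69 in vehicle-injected mice. Over the 56 samples this mean, with group means taken off, had an r of -0.10 with Ifitm2 and of -0.11 with Ifitm3. The T cell mean had an r of 0.33 with Ifitm2 and of 0.29 with Ifitm3. For the choroid plexus and ependyma mean these were 0.25 and 0.29, and for the neuron mean -0.24 and -0.26. No T cell marker was called in brain stem, where the mean of the 4 T cell markers was low (3.16 to 3.64). The absorbance ratio that measures the purity of RNA from protein, as the labels give it for brain stem, was 1.34 to 1.99 in tumor-bearing and 1.72 to 2.01 in vehicle-injected mice. The part of these markers and of RNA purity in the Ifitm2 and Ifitm3 values was not tested.

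**Figure D3:**
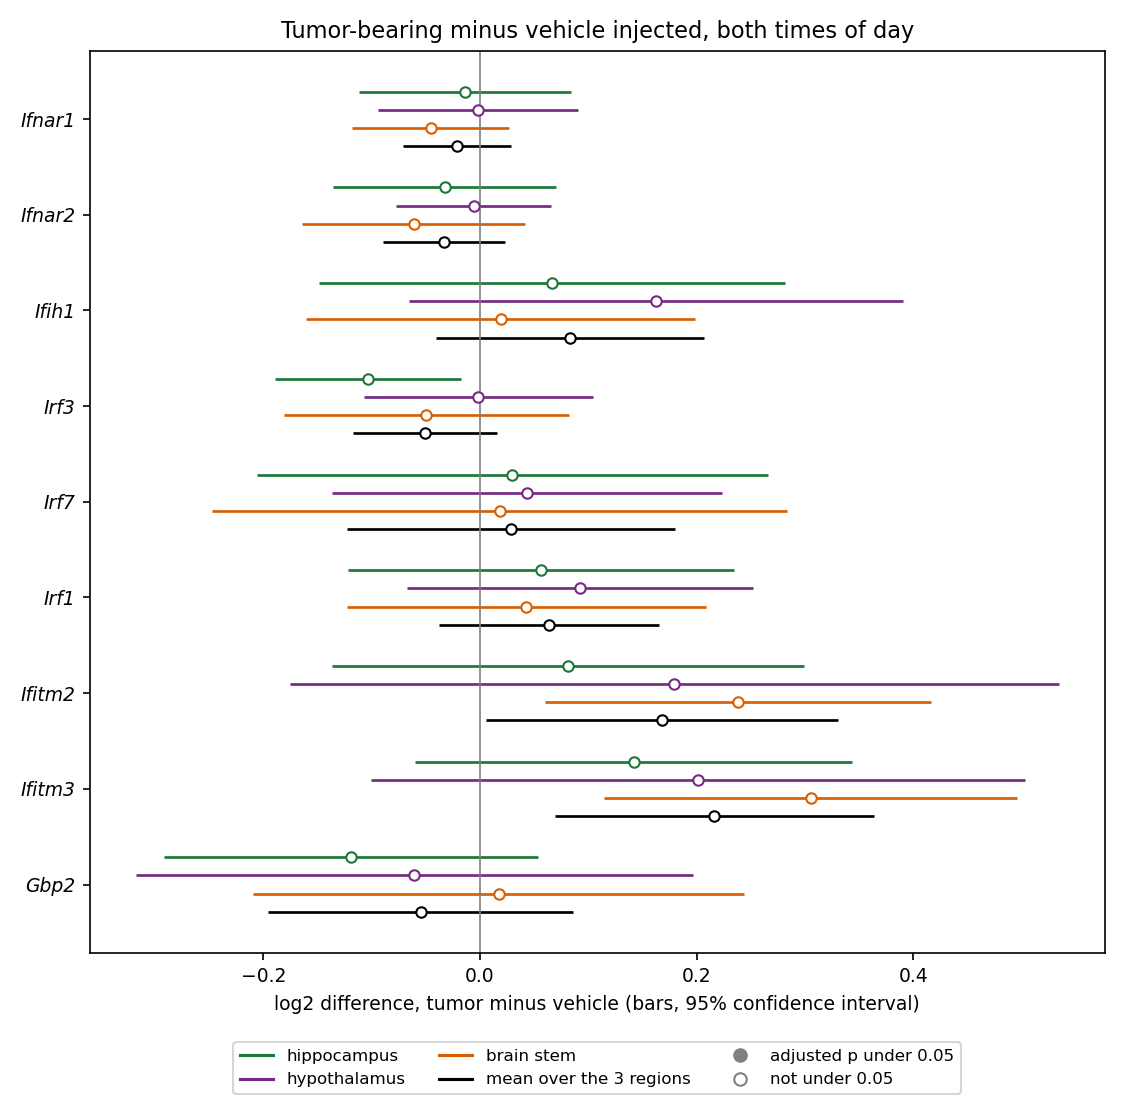
Log2 difference between tumor-bearing and vehicle-injected mice (x axis) for the 9 genes in hippocampus (green), hypothalamus (purple) and brain stem (orange) and over the 3 regions (black), with 95% intervals; a filled point would mark an adjusted p under 0.05. All points are open, and the farthest right is Ifitm3 in brain stem at 0.31.

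At each time of day alone, no member was called for the tumor. At mid-dark it was 0 of 27 by limma, against 0.13% of all, and 2 at an unadjusted p under 0.05, against 6.24%: Ifitm3 (0.36, adjusted p 0.595) and Ifitm2 (0.28, adjusted p 0.652), both in brain stem. At mid-light it was 0 of 27, against 0.303%, and 2 unadjusted, against 5.63%: Gbp2 in hippocampus (-0.34, adjusted p 0.423) and Ifnar1 in brain stem (-0.11, adjusted p 0.898). For the interaction of tumor and phase it was 0 of 27, against 0%, and 2 unadjusted, against 4.12%.

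Those 2 interactions were Irf7 and Gbp2, both in hippocampus. Irf7 lay there at 5.00, 5.28, 5.32, 5.73 and 5.76 in vehicle-injected and at 5.51, 5.67, 5.76, 5.83 and 5.93 in tumor-bearing mice at mid-dark. At mid-light it lay at 5.41, 5.52, 5.62, 5.86 and 5.93 in vehicle-injected and at 5.05, 5.22, 5.32, 5.65 and 5.80 in tumor-bearing mice. The tumor-bearing mice were the higher ones at mid-dark and the lower ones at mid-light, with overlap at both times. The tumor difference was 0.32 at mid-dark and -0.26 at mid-light, and the interaction of 0.58 (SE 0.22, 95% interval 0.11 to 1.05) did not pass (unadjusted p 0.0188, adjusted p 0.601, range over the alternatives 0.497 to 0.856).

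Gbp2 in hippocampus lay at 6.26, 6.38, 6.45, 6.47 and 6.57 in vehicle-injected and at 6.28, 6.45, 6.49, 6.49 and 6.90 in tumor-bearing mice at mid-dark. At mid-light it lay at 6.42, 6.44, 6.49, 6.65 and 6.91 in vehicle-injected and at 6.03, 6.06, 6.34, 6.37 and 6.42 in tumor-bearing mice. At mid-light every tumor-bearing mouse lay at or under the lowest vehicle-injected mouse, while at mid-dark the groups were mixed. The interaction was 0.44 (SE 0.16, 0.09 to 0.78, unadjusted p 0.0159, adjusted p 0.601).

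No region was shown to differ from another in the tumor effect on a member. It was 0 of 27 by limma in adjusted and in unadjusted p, against 0% and 3.29% of all tests. For the phase effect it was 0 of 27 adjusted, against 0.173%, and 1 of 27 unadjusted, against 6.06%, which was the Ifnar2 comparison given above.

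Differences in level between brain regions were common across the panel. Members were called in 59.3% of these tests, a lower share than that of all genes. Of the 27 region pairs, 16 were called, 6 higher and 10 lower in the first region named, against 71.6% of all tests, and 19 had an unadjusted p under 0.05, against 73.3%. Hippocampus differed from hypothalamus in 7 of 9 members (71.7% of all genes), hippocampus from brain stem in 5 of 9 (76.6%) and hypothalamus from brain stem in 4 of 9 (66.5%). The share of members called was thus 77.8% for hippocampus and hypothalamus, 55.6% for hippocampus and brain stem and 44.4% for hypothalamus and brain stem, both of the brain stem shares below the share of all genes. With the mean of the reference genes subtracted, the median over all genes moved by 0.11 for hippocampus minus hypothalamus and by -0.13 for hypothalamus minus brain stem, so small differences depended on the scaling.

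Both receptor genes were highest in hypothalamus on the deposited scale, an order that turned for Ifnar1 against brain stem once the reference genes were subtracted. Ifnar1 lay at 10.24, 10.35 and 10.49 (lowest, median and highest) there, at 10.07, 10.24 and 10.42 in hippocampus and at 10.10, 10.25 and 10.43 in brain stem. Ifnar2 lay at 8.99, 9.07 and 9.19 in hypothalamus, at 8.71, 8.97 and 9.21 in hippocampus and at 8.68, 8.88 and 9.16 in brain stem. The ranges overlapped for both, and the hypothalamic Ifnar2 values were the tightest. Ifnar2 was lower in hippocampus than in hypothalamus by 0.13 on the log2 scale (adjusted p 7.05e-05), and hypothalamus lay above brain stem by 0.19 (adjusted p 1.8e-07), in 16 of 16 mice. With the reference genes subtracted these differences were -0.03 (adjusted p 0.542) and 0.06 (adjusted p 0.173). For Ifnar1 they were -0.11 (adjusted p 0.0001) and 0.10 (adjusted p 0.000733), and with the reference genes subtracted -0.01 (adjusted p 0.866) and, with the direction turned, -0.03 (adjusted p 0.404). Hippocampus minus brain stem was 0.06 for Ifnar2 (adjusted p 0.0546), which passed in 6 of 25 alternatives (0.00988 to 0.428 over all), among them those without mouse 3, 13, 22, 28 or 29.

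Ifih1 was lowest in hippocampus, with 6.63, 7.16 and 7.63 there against 7.31, 7.48 and 7.96 in hypothalamus and against 7.29, 7.58 and 8.01 in brain stem. Hippocampus lay low within ranges that overlapped. It was lower than hypothalamus by 0.39 (adjusted p 3.84e-07), in 17 of 17 mice, and lower than brain stem by 0.47 (adjusted p 1.78e-09), in 19 of 19 mice. Hypothalamus and brain stem did not differ past the threshold (-0.08, adjusted p 0.289). With the reference genes subtracted, the median over all genes moved by -0.13 for this pair. The size of this small difference thus depended on the scaling.

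Irf1 separated brain stem from the forebrain regions. It lay at 7.88, 8.11 and 8.52 in hippocampus, at 7.77, 7.95 and 8.25 in hypothalamus and at 7.03, 7.43 and 7.76 in brain stem. Every hippocampus and every hypothalamus lay above every brain stem. Irf1 was 63.1% higher in hippocampus than in brain stem (log2 difference 0.71, SE 0.05, adjusted p 9.42e-18), in 19 of 19 mice, and 46.6% higher in hypothalamus than in brain stem (0.55, adjusted p 6.59e-13), in 16 of 16 mice. The step from hypothalamus to hippocampus was smaller, 0.15 (adjusted p 0.00782), in 14 of 17 mice.

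Irf3 had its median highest in brain stem, at 8.43 (8.10 to 8.74), against 8.30 (8.02 to 8.54) in hippocampus and 8.31 (8.03 to 8.69) in hypothalamus. Hippocampus was lower than brain stem by 0.14 (adjusted p 0.000173), in 17 of 19 mice. Hypothalamus lay between them, -0.07 from brain stem (adjusted p 0.0595), a difference that passed in 7 of 25 alternatives, with the reference genes subtracted (-0.21) and without mouse 1, 3, 4, 5, 6 or 19 (-0.09 to -0.08). Irf7 lay at 5.48, 5.82 and 6.02 in hypothalamus, 5.00, 5.64 and 5.93 in hippocampus and 4.92, 5.57 and 6.07 in brain stem, with wide overlap. Irf7 was lower in hippocampus than in hypothalamus by 0.21 (adjusted p 0.0154), which was lost without mouse 28 (-0.17, adjusted p 0.0504) and with the reference genes subtracted (-0.10, adjusted p 0.269). Its difference between hypothalamus and brain stem, 0.17 (adjusted p 0.0582), passed with genes of a mean level of at least 5 and without mouse 2, 4, 11, 12, 13 or 22 (0.0192 to 0.0496).

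Gbp2 was ordered hypothalamus, brain stem, hippocampus. It lay at 6.66, 7.04 and 7.45 in hypothalamus, at 6.13, 6.73 and 7.25 in brain stem and at 6.03, 6.44 and 6.91 in hippocampus. Neighbors in that order overlapped in their ranges. Gbp2 in hippocampus stood at -34.7% relative to hypothalamus (log2 difference -0.62, adjusted p 1.71e-10), in 16 of 17 mice. It was lower in hippocampus than in brain stem by 0.29 (adjusted p 0.000177) and higher in hypothalamus than in brain stem by 0.32 (adjusted p 0.000148).

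The paralogs are given side by side. Ifitm3 was lowest in hippocampus, at 9.31, 9.72 and 10.22, against 9.58, 9.98 and 10.40 in hypothalamus and against 9.64, 9.94 and 10.52 in brain stem. It was lower in hippocampus than in hypothalamus by 0.26 (adjusted p 0.00235), a call lost with the reference genes subtracted (-0.15, adjusted p 0.119), and lower than in brain stem by 0.30 (adjusted p 0.000239), in 16 of 19 mice. Ifitm2 lay at 8.77, 9.13 and 9.58 in hippocampus, at 8.52, 8.99 and 9.66 in hypothalamus and at 8.84, 9.14 and 9.54 in brain stem, and no region pair passed (adjusted p 0.119 or above), though 1 pair passed in 2 and another in 3 of 25 alternatives. The difference between the paralogs in their regional pattern was not tested.

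The regions also differed in cell type markers. All 5 oligodendrocyte markers were lower in hippocampus than in brain stem and than in hypothalamus (median log2 difference -0.34 for the latter), and 5 of 6 microglia markers were higher in hippocampus than in brain stem (median 0.50). Their part in the regional levels of the members was not tested.

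**Figure D4:**
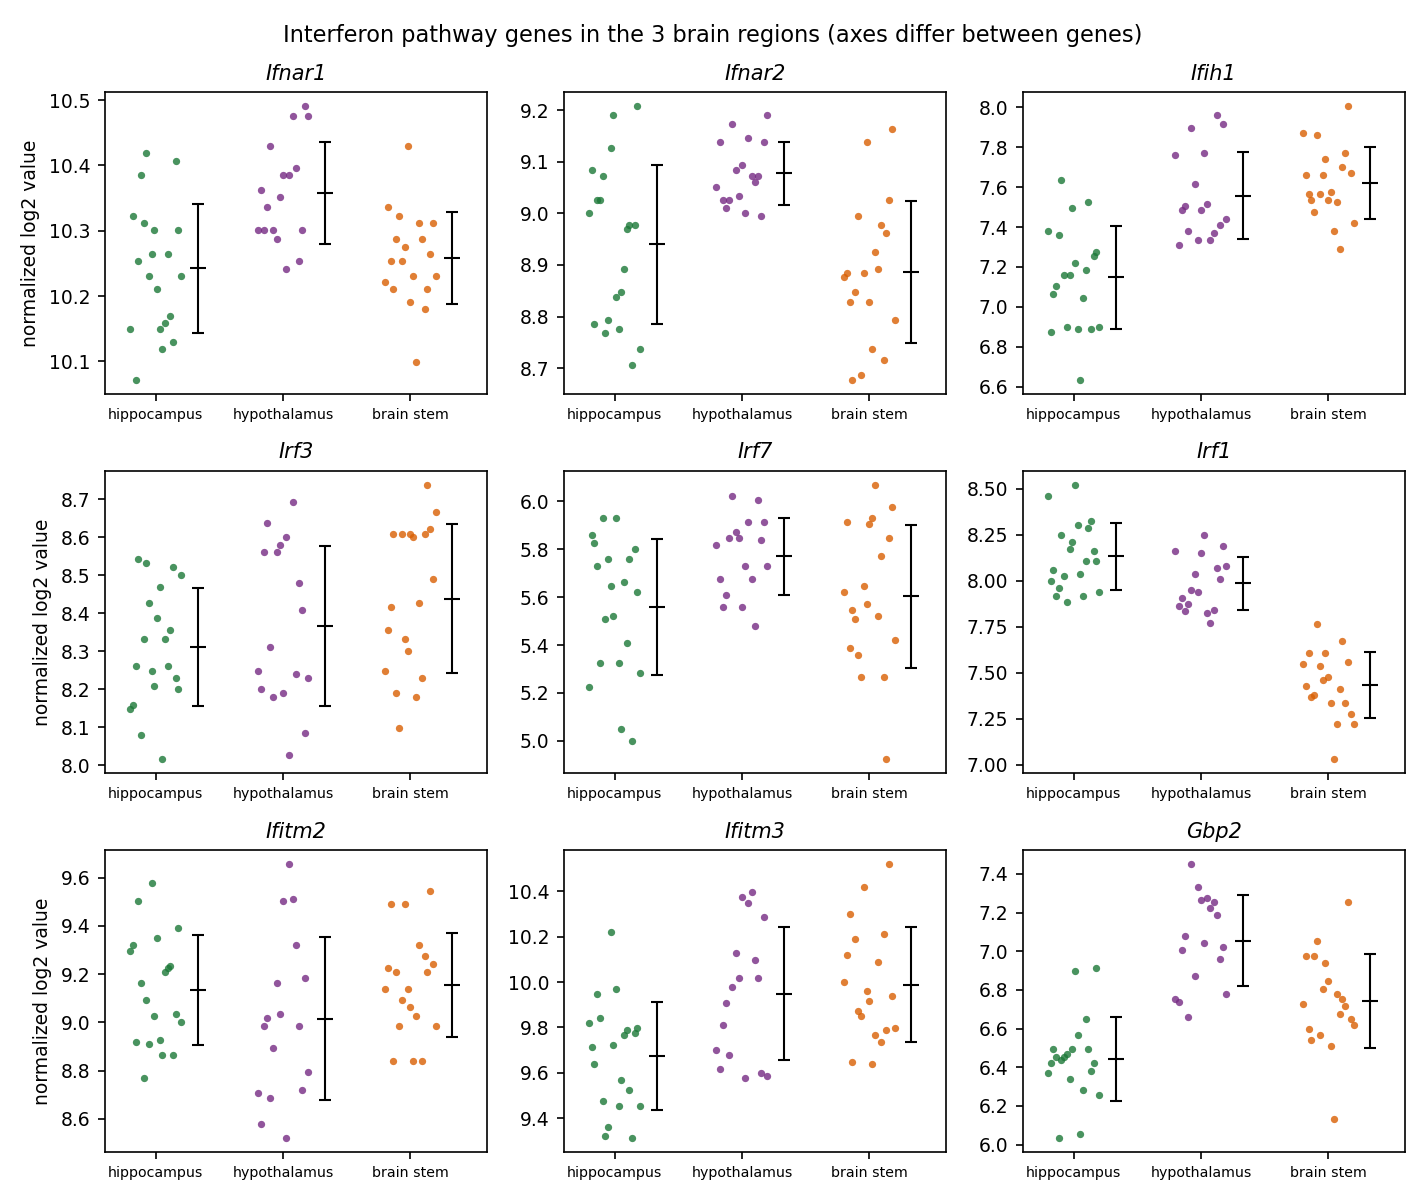
Normalized log2 level of each of the 9 genes (1 panel per gene, each with its own y axis) in hippocampus, hypothalamus and brain stem, 1 point per sample, with the mean ± SD in black. Irf1 in brain stem (7.03 to 7.76) lies wholly under its hippocampal (7.88 to 8.52) and hypothalamic (7.77 to 8.25) values.

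The 3 induced genes were among the members that varied together from sample to sample. The mean of each region, time and tumor group was taken off first. Over the 56 samples the 36 pairs of members then had a median Pearson r of 0.15 (-0.21 to 0.89). All pairs of genes with a mean level of at least 5 had a median of -0.00, from -0.38 at percentile 5 to 0.39 at percentile 95. Besides Ifitm2 with Ifitm3, the pairs over 0.39 were Ifitm3 with Gbp2 (0.63), Ifitm2 with Gbp2 (0.53), Ifih1 with Irf1 (0.51), Ifnar2 with Ifitm2 (0.48) and Ifnar2 with Ifitm3 (0.40). The highest was Ifitm2 with Ifitm3, at 0.89, with 0.82 within hippocampus, 0.93 within hypothalamus and 0.89 within brain stem. Samples high in one were high in the other in every region. Paralogous transcripts may be read by a shared probe, and the cross-reaction of these probes was not tested. Samples of a mouse and the shared scaling enter these correlations, and Ifitm2 and Ifitm3 had an r of -0.44 and -0.43 with the mean of the 13 reference genes.

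**Figure D5:**
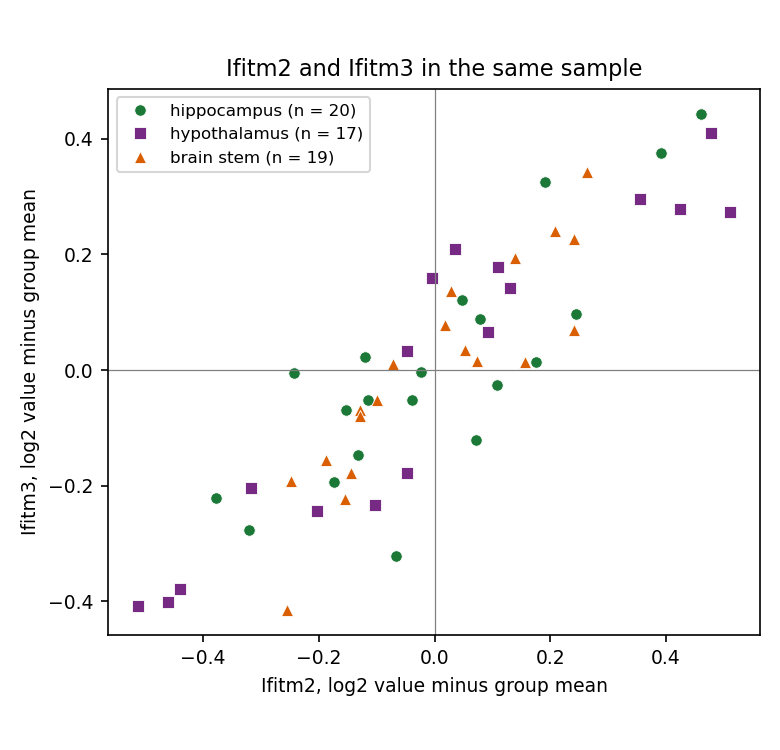
Deviation of Ifitm3 (y axis) against that of Ifitm2 (x axis) from the mean of their region, time and tumor group, in log2 units, 1 point per sample over 56 samples. The points run along a rising line in each region (r of 0.82 for hippocampus, 0.93 for hypothalamus and 0.89 for brain stem).

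The gene whose deviations were most like those of each member, among the genes with a mean level of at least 5 and over the same 56 samples, is given as a description. For the receptor genes these were Ngfr for Ifnar1 (r 0.57) and Cdkn1c for Ifnar2 (0.69). For Ifih1 it was Hdac2 (0.62). For the factors they were Ctsf for Irf3 (0.43), Suz12 for Irf7 (0.54) and Hdac1 for Irf1 (0.69). Ifitm2 and Ifitm3 were each nearest to the other (0.89), followed by Cd74 for Ifitm2 (0.84) and Cp for Ifitm3 (0.84). Gbp2 was nearest to Fgl2 (0.70).

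Other genes of the interferon pathway give the setting. Of a list of 51 ligands, receptors, sensors, kinases, factors, induced genes and inhibitors, 26 were rows of the table, and no ligand was among them. For the tumor, 1 of the 26 was called in each region, the induced gene Ly6a (0.60 for hippocampus, 0.57 for hypothalamus and 0.58 for brain stem, all higher in tumor-bearing mice), against 0.607% of all gene and region tests. The median of the 26 was -0.03, 0.01 and -0.02 in these regions, beside -0.01, 0.00 and -0.01 for all genes.

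For time of day, none of the 26 was called in hippocampus by limma (3 had an unadjusted p under 0.05) or in brain stem (1 had), and 1 was called in hypothalamus, Irf8, a factor of microglia and other myeloid cells (0.35, adjusted p 0.0259). Of all genes, 5.59% were called in hippocampus, 4.94% in brain stem and 2.34% in hypothalamus. Over the 3 regions the adaptor Myd88 (0.18, adjusted p 0.00277) and Irf8 (0.18, adjusted p 0.0423) were higher and the class I molecule H2-T23 (-0.26, adjusted p 0.0386) lower at mid-dark, against 13.5% of all genes. The median of the 26 was 0.01 for hippocampus, 0.01 for hypothalamus and -0.01 for brain stem. Between regions, 15 of the 26 differed between hippocampus and hypothalamus, 5 higher and 10 lower, against 71.7% of all genes, with Mavs, the mitochondrial adaptor of Ifih1, at -0.93. Mavs also lay at -0.37 between hippocampus and brain stem, where 6 were higher and 7 lower, against 76.6% of all genes. Ifih1 and Mavs were both lowest in hippocampus. Ddx58, another sensor, was also lower there than in hypothalamus (-0.20). Other called sensors and adaptors went the other way. Mb21d1, Tlr7, Tmem173 and Myd88 were higher in hippocampus than in hypothalamus (0.65, 0.51, 0.24 and 0.15). They were also higher there than in brain stem (0.58, 0.42, 0.34 and 0.19).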

How the data were processed

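Total RNA from hippocampus, hypothalamus and brain stem was measured by the authors with the nanoString nCounter mouse neuroinflammation panel. The deposited values are log2 expression levels that the authors made in nSolver by subtracting the negative-control background and scaling to positive controls and codeset content, followed by quantile normalization in Partek. Some listed samples had no values, as given above, and the published methods do not state why. Quantile normalization gives every sample the same distribution, so a shift shared by all genes would not be seen, and the depth behind each value is unknown.

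Samples were grouped by region, tumor status and time of day. Within each region, limma 3.58.1 in R 4.3.3 fitted the means of the 4 groups, with p-values adjusted by Benjamini-Hochberg over all genes of the region. A gene with the same value in all samples was not tested (1 in hippocampus and 1 in brain stem). Regions were compared, and effects averaged over regions, in 1 limma fit of 12 group means with the mouse as a block (duplicateCorrelation, 0.136), since the 3 regions came from the same mouse. A result was called at an adjusted p under 0.05, and intervals are 95%. The script was tested on simulated data first. Counts, ranges and figures were made in Python 3.11.15 with numpy 2.4.6, pandas 2.3.3 and matplotlib 3.10.9.

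Named genes were the 9 members in every comparison, the other interferon pathway genes that were called or else had the smallest p, the gene most correlated with each member, and cell type markers where they differed between groups. The members and the lists were chosen with earlier results of these data known. Alternatives were a prior that follows the mean level, unmoderated p-values, a fit limited to the groups compared, testing of genes with a mean level of at least 5 alone, sample medians or the mean of 13 reference genes subtracted, quantile normalization within a region, no mouse block, the mouse as a fixed term, and each mouse left out in turn.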

Additional observations from a re-analysis of the deposited data

Results flagged for a closer look

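In 8 of the 99 groups of 4 or 5 samples formed by a member, a region, a tumor group and a time of day, 1 sample lay far from the others. Chance alone gives about 1 in 20.

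Among the receptor genes, Ifnar1 was at 10.476 in the hypothalamus of mouse 19, tumor-bearing at mid-dark, with the others of its group at 10.24 to 10.30. Ifnar2 was at 9.0254 in the hippocampus of mouse 4, vehicle-injected at mid-dark, with the others at 8.71 to 8.79. The sensor Ifih1 was at 7.10556 in the same hippocampus of mouse 4, with the others at 6.89 to 6.90, and at 7.69965 in the brain stem of mouse 23, tumor-bearing at mid-dark, with the others at 7.53 to 7.57. Irf7 was at 5.55828 in the hypothalamus of mouse 9, tumor-bearing at mid-light, with the others at 5.82 to 5.92.

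Among the induced genes, Ifitm2 was at 9.50092 and Ifitm3 at 9.94904 in the hippocampus of mouse 4, with the others of its group at 8.87 to 9.00 and 9.31 to 9.45. Ifitm3 was at 9.47736 in the hippocampus of mouse 6, vehicle-injected at mid-light, with the others at 9.71 to 9.80. The hippocampus of mouse 4 was thus high in 4 of these 8 groups.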

How the results depend on the processing

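The 3 regions came from the same mice, which pairs their samples. With no mouse block, the members called were 7 for hippocampus minus hypothalamus, 5 for hippocampus minus brain stem and 4 for hypothalamus minus brain stem, and with the mouse as a fixed term they were again 7, 5 and 4. Without the block, 0 members were called for the tumor over the 3 regions and 3 for time of day, in place of 2, the added one being Ifnar1. Region differences of the tumor and phase effects gave 0 in both fits. The pairing changed no other call.

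With the mean of the reference genes subtracted, the called members were 1 for dark minus light in hippocampus over both tumor groups (2 as reported), 1 in brain stem (2), 1 in the hippocampus of vehicle-injected mice (2) and 4 for hippocampus minus hypothalamus (7), and the difference of Ifnar1 between hypothalamus and brain stem reversed to -0.0334. A fit of only the groups compared gave 1 in the hippocampus of vehicle-injected mice. Unmoderated p-values gave 1 in the hippocampus of tumor-bearing mice (0 as reported), and genes with a mean level of at least 5 gave 1 in the brain stem of vehicle-injected mice (0). The reference genes include Asb10, which lay low in hippocampus (-0.37 to 4.29), hypothalamus (3.17 to 4.45) and brain stem (2.70 to 4.25). The causes were not tested.

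With each mouse left out in turn, dark minus light calls ran from 0 to 2 in the hippocampus of vehicle-injected mice (0 without mouse 2, 30 or 32), from 0 to 1 in the hippocampus of tumor-bearing mice (1 without mouse 3), from 1 to 2 in brain stem over both tumor groups, and from 0 to 1 in the brain stem of vehicle-injected mice (1 without mouse 29 or 30). Tumor calls in brain stem ran from 0 to 1 (1 without mouse 13). In all, 31 counts moved. Of the single-gene values, 33 lost the call, 31 gained it and 1 reversed, and not all of these are listed here. Single-gene values were followed only where the reported unadjusted p was under 0.05. The remaining 800 counts were equal or within 1.5 times, which does not show that the same members were called. The remaining 1299 single-gene values stayed on their side of the threshold in the same direction.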
